A study of Mus musculus with 39 samples.

Results

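Connexins are the membrane proteins that build gap junctions, the channels through which ions and small molecules pass directly between neighbouring cells. Each cell contributes a hemichannel, and the connexins it expresses set which partners it can couple to. Gjd2 encodes Cx36, the main connexin of electrical synapses between neurons, and has been described at the central terminals of muscle afferents in the mammalian spinal cord. Gja1 (Cx43) is the broadly expressed connexin of satellite glia, fibroblasts and endothelium, Gjb1 (Cx32) forms channels within the myelin of Schwann cells, and Gjc3 (Cx29 in mouse) is a further connexin of myelinating cells.

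These 4 genes, Gjd2 as the neuronal connexin and Gja1, Gjb1 and Gjc3 as the glial ones, were chosen by name from 18193 genes measured on 39 Affymetrix mouse arrays of lumbar dorsal root ganglia (DRG). Every probe set annotated to 1 of them alone was used, 12 in all, with 2 for Gjd2, 6 for Gja1, 2 for Gjb1 and 2 for Gjc3. For each gene the probe set with the highest mean over all arrays carries the main values, and the others are given where they pass the test or go against it. The study singled out Gjd2 from these arrays as a gene of proprioceptors, so its enrichment there is not independent evidence.

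All 27 newborn (P0) arrays came from mice on a 129/C57Bl6 background with a TrkCGFP transgene, a bacterial artificial chromosome that expresses GFP under control elements of the neurotrophin receptor TrkC. GFP-positive cells, here TrkC+, are mostly proprioceptors, the afferents of muscle spindles and tendon organs, and GFP-negative cells, here TrkC-, are the remaining DRG cells that passed the sort. Pooled L1 to L6 ganglia were taken from 4 genotypes with 2 arrays per population: NT3-/- Bax-/- (NT3Bax), without the survival factor NT3 and the death gene Bax, Bax-/- (Bax), mlcNT3, which makes surplus NT3 under a myosin light chain promoter of skeletal muscle, and wild type (WT). Wild-type L5 and L1 ganglia were also sorted singly, with 2 arrays for L1 TrkC+ and 3 for each other group. The 12 adult arrays held whole wild-type ganglia of L5 or L1, from mice with a running wheel for 5 weeks or without one, with 3 arrays per group. The methods give these as male C57Bl6 mice, 5 weeks old at the start, with littermates as controls. Their strain label is 129/C57Bl6. Values are on the log2 scale of the deposited intensities, and differences are log2, first group minus second, with the standard error (SE) and an adjusted p from limma over all 45037 probe sets.

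For Gjd2 and Gja1, a stretch of each promoter that holds a searched motif is shown here, from RefSeq on GRCm38.p6. The Gjd2 stretch covers 30 bases at chr2:114013659-114013688 on the minus strand, upstream of an annotated start but inside the gene record, which runs from 114009601 to 114014378. The Gja1 stretch covers the 60 bases at chr10:56377240-56377299 on the plus strand, which end at the base before the annotated start of the gene. Capitals mark the half-site of a cAMP response element in Gjd2 and an AP-1 site in Gja1.
Gjd2: cgccgacctggcgTGACGcaggcggagact
Gja1: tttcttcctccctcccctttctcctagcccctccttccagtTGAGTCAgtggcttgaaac
On both strands of windows of 300 bases around annotated starts, the AP-1 motif TGANTCA was present in 7.81% of 32851 promoters, the half-site TGACG in 20.8% and the GC box GGGCGG in 35.7%. The Gjd2 window held 1 half-site and 1 GC box and no AP-1 motif, and the Gja1 window held 1 AP-1 motif and 2 half-sites and no GC box. The single Gjc3 window held none of the 3 motifs, and of 4 Gjb1 windows only 1 held any, with 3 GC boxes. No match overlapped another. The 2 half-sites of Gja1 lie outside the stretch shown. Any part of these motifs in the levels of the genes was not tested.

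The sort was checked on marker genes. All 5 proprioceptor markers measured were higher in TrkC+ than in TrkC- cells in each of the 6 newborn comparisons. Of these, Ntrk3 is the gene of TrkC, whose elements drive GFP, and Esrrg and Pth1r were singled out by the study from these arrays. Those genes are therefore no independent check. Runx3, a transcription factor of proprioceptors, differed by 5.64 (SE 0.29) in pooled WT ganglia, and Scn10a, a sodium channel of nociceptors, by -5.49 (SE 0.52). RNA of glia was present in both populations. Mbp, a myelin protein, stood at 9.95 and 9.78 in WT TrkC+ cells and at 10.68 and 10.58 in WT TrkC- cells, and Sox10, a transcription factor of glia, at 8.66 and 8.30 against 9.12 and 8.91.

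The 2 NT3Bax TrkC- arrays stood apart from the other newborn arrays. Their summed linear level of 8 fibroblast and meningeal markers was 36500 to 53500, against 2790 to 4670 in Bax and 3430 to 3840 in WT TrkC- cells. The sum of 11 satellite and immature glia markers was 25100 to 29800, against 10400 to 13100 in Bax and 8780 to 8850 in WT, and that of 10 Schwann cell and myelin markers 22900 to 26000, against 12100 in both Bax arrays and 11800 to 12900 in WT. Against Bax, 7 of the 11 satellite and immature glia markers were called higher and 1 lower. Of the 10 Schwann cell and myelin markers, 4 were called higher and 1 lower. All 8 endothelial markers were also higher than in Bax, where 21.7% of all probe sets were called. Nociceptor markers summed to 12300 and 24900, against 31300 to 32800 in Bax, with 1 of 6 called lower. Ntrk3, the gene of TrkC itself, was 9.09 and 9.16 in these GFP-negative cells, against 6.85 and 7.41 in Bax (1.99, SE 0.30, adjusted p = 8.03e-04). The correlation between the 2 arrays, 0.972, was the lowest of any group. Connexin values that use these arrays are therefore given beside those markers, whose part in the results was not tested. Fewer cells of a type and less RNA per cell cannot be told apart in any of these samples.

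Gjd2 was higher in TrkC+ than in TrkC- cells in all 6 newborn comparisons. In pooled WT ganglia it stood at 9.14 and 8.71 in TrkC+ cells, against 5.74 and 5.34 in TrkC- cells, a difference of 3.38 (SE 0.36, adjusted p = 8.64e-05), or 10.4-fold on the linear scale. Single levels gave nearly the same size. In L5 cells Gjd2 was 8.98, 8.99 and 9.02 in TrkC+, against 5.63, 4.56 and 6.07 in TrkC-, a difference of 3.57 (SE 0.30, adjusted p = 9.92e-06). In L1 cells it was 9.57 and 9.28 in TrkC+, against 5.73, 6.08 and 5.71 in TrkC-, a difference of 3.58 (SE 0.34, adjusted p = 2.46e-05). The 3 L5 TrkC+ arrays were nearly equal, and every TrkC+ array of wild type lay above every TrkC- array.

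The enrichment of Gjd2 was present in the 3 mutant genotypes too, at different heights. Bax mutants had 9.62 and 9.80 in TrkC+ cells, against 7.21 and 5.93 in TrkC- cells, with a difference of 3.14 (SE 0.36, adjusted p = 1.78e-04). With surplus muscle NT3, Gjd2 was 8.70 and 9.05 in TrkC+ cells, against 6.09 and 6.85 in TrkC- cells, with a difference of 2.41 (SE 0.36, adjusted p = 9.95e-04). NT3Bax mutants had only 6.10 and 6.08 in TrkC+ cells, against 4.03 and 4.29 in TrkC- cells, and the difference was 1.93 (SE 0.36, adjusted p = 0.0025). The TrkC+ and TrkC- values of a genotype did not overlap in any of the 4 genotypes. The difference between populations in NT3Bax minus that in Bax was -1.21 (95% interval -2.32 to -0.10, adjusted p = 0.177). That value rested on the Bax TrkC- arrays, being -1.85 (adjusted p = 0.0254) without replicate 1 and -0.57 (adjusted p = 0.523) without replicate 2.

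**Figure D1:**
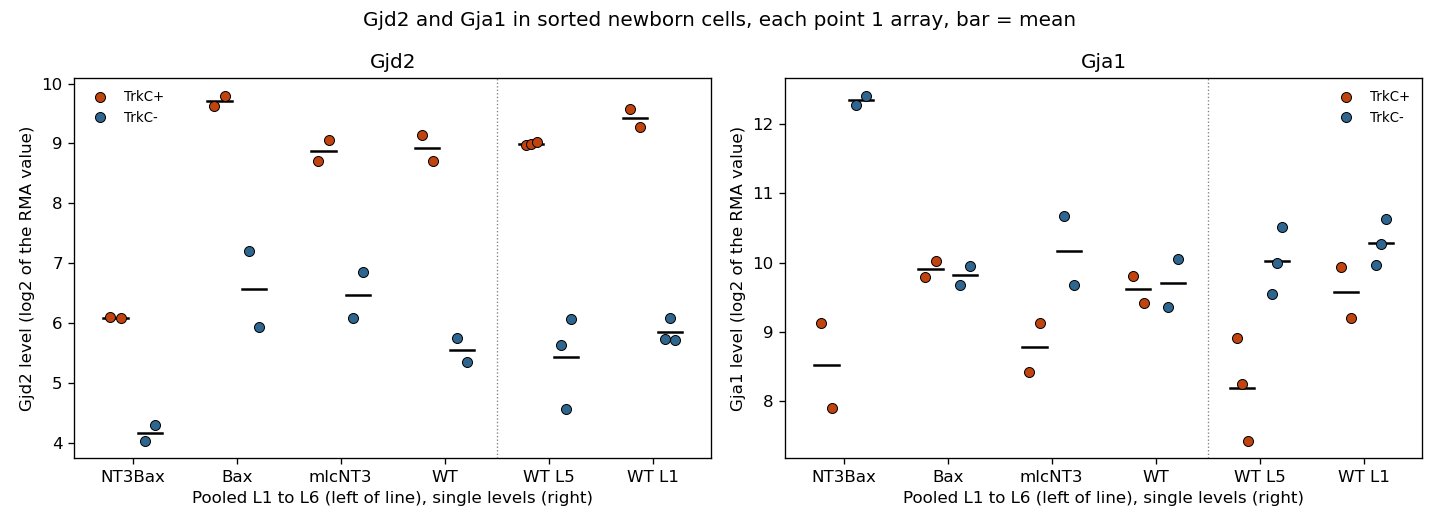
Log2 level of Gjd2 (left) and Gja1 (right) on each newborn array, by genotype or level, TrkC+ in orange and TrkC- in blue, with a bar at the group mean. Gjd2 is between 8.70 and 9.80 in TrkC+ cells of every group except NT3Bax, where it is 6.10 and 6.08, and Gja1 is highest in NT3Bax TrkC- cells at 12.28 and 12.41.

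Loss of NT3 went with the largest difference of Gjd2 within one population. In TrkC+ cells, NT3Bax stood at 6.10 and 6.08, against 9.62 and 9.80 in Bax, a difference of -3.62 (SE 0.36, adjusted p = 4.80e-05), so that Bax was 12.3-fold higher. Against the 9.14 and 8.71 of WT, the difference was -2.84 (SE 0.36, adjusted p = 1.58e-04). On the same arrays Ntrk3 differed from Bax by 0.15 (95% interval -0.52 to 0.81, adjusted p = 0.813), while Pvalb, the calcium-binding protein of proprioceptors, was 7.29 and 9.71, against 13.18 and 13.06 in Bax (-4.62, SE 0.55, adjusted p = 1.59e-04). Runx3 was 9.21 and 9.80, against 10.37 and 10.64. The 5 proprioceptor markers summed to 4750 to 6630, against 16700 to 19100 in Bax, with 3 called lower and 0 higher. They include Pth1r, which the study had already shown from these arrays as lower in NT3Bax, so its part was known beforehand. The 9 pan-neuronal markers summed to 45200 to 55800, against 65800 to 68000, with 2 called lower and 0 higher. Beside this and the other list counts of this comparison, 18.2% of all probe sets were called. The NT3Bax TrkC+ arrays also differed from Bax in the sums of markers of other cells. The fibroblast and meningeal sum was 9430 to 11000 against 2030 to 2740. Only 1 of its 8 markers was called higher, and their median difference was 0.08, against 0.01 for all probe sets. The satellite and immature glia sum was 3580 to 7280 against 9470 to 13000 (4 of 11 lower, median -0.70). The Schwann cell and myelin sum was 3340 to 5490 against 8350 to 8360 (3 of 10 lower, median -0.62). The part of these markers in the Gjd2 difference was not tested. Gjd2 was also lower in NT3Bax TrkC- cells, by -2.41 (SE 0.36, adjusted p = 6.89e-04) against Bax and -1.38 (SE 0.36, adjusted p = 0.0139) against WT, on the arrays with the high sums of glial and fibroblast markers. The difference from WT was no longer called without NT3Bax TrkC- replicate 1 (-1.26) or WT TrkC- replicate 1 (-1.19).

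Bax loss alone and surplus NT3 gave no called change of Gjd2. Bax TrkC+ cells were higher than WT TrkC+ cells by 0.78 (95% interval -0.00 to 1.57, adjusted p = 0.389), and mlcNT3 TrkC+ cells differed from WT by -0.05 (95% interval -0.83 to 0.74, adjusted p = 1). In TrkC- cells the differences were 1.03 for Bax (SE 0.36, adjusted p = 0.352) and 0.93 for mlcNT3 (SE 0.36, adjusted p = 0.662). Neither overlapped with WT, but groups of 2 arrays often separate without a difference. L5 and L1 TrkC+ cells differed by -0.43 (95% interval -1.17 to 0.31, adjusted p = 0.772).

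Ordered by group mean, Gjd2 was 9.71 ± 0.12 (SD, n = 2) in Bax TrkC+, 9.42 ± 0.21 (n = 2) in L1 TrkC+, 9.00 ± 0.02 (n = 3) in L5 TrkC+, 8.93 ± 0.31 (n = 2) in WT TrkC+ and 8.88 ± 0.25 (n = 2) in mlcNT3 TrkC+. The TrkC- groups other than NT3Bax lay between 6.57 ± 0.90 (n = 2) in Bax and 5.42 ± 0.78 (n = 3) in L5. NT3Bax TrkC+, at 6.09 ± 0.01 (n = 2), fell among them, and NT3Bax TrkC-, at 4.16 ± 0.18 (n = 2), was last. Values of neighbouring groups overlapped at 6 of the 11 steps in this order, including L5 TrkC+ with WT TrkC+ and WT TrkC+ with mlcNT3 TrkC+.

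The other Gjd2 probe set, 1423019_at, had a lower mean and showed little of this pattern. In pooled WT ganglia it was 5.33 and 5.40 in TrkC+ cells, against 5.69 and 5.50 in TrkC- cells, a difference of -0.23 (SE 0.19, adjusted p = 0.549), opposite in sign to the main probe set. It passed the test in 2 newborn comparisons, TrkC+ against TrkC- in Bax at 0.71 (SE 0.19, adjusted p = 0.0373) and NT3Bax against Bax TrkC+ cells at -0.93 (SE 0.19, adjusted p = 0.00488). All statements on Gjd2 above rest on 1435297_at alone.

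On its main probe set Gja1 was called lower in TrkC+ cells at L5 and in NT3Bax, and was not called in the other newborn comparisons. In mlcNT3 and at L1 it was lower in TrkC+ cells without overlap but not called, and groups of so few arrays often separate without a difference. In pooled WT ganglia it was 9.81 and 9.41 in TrkC+ cells, against 9.36 and 10.05 in TrkC- cells, a difference of -0.09 (SE 0.42, adjusted p = 0.937). In Bax it was 9.79 and 10.03, against 9.67 and 9.95, a difference of 0.10 (SE 0.42, adjusted p = 0.953). The values overlapped in both genotypes. In mlcNT3 it was 8.42 and 9.13 in TrkC+ cells, against 10.68 and 9.67 in TrkC- cells, a difference of -1.40 (SE 0.42, adjusted p = 0.0534), which was called without mlcNT3 TrkC- replicate 2 (-1.90) and without either NT3Bax TrkC+ array. In the same comparison 2 other Gja1 probe sets were called lower, 1438945_x_at (-1.33, adjusted p = 0.0267) and 1415800_at (-1.34, adjusted p = 0.0329). At single levels Gja1 was lower in TrkC+ cells at L5, with 8.91, 8.24 and 7.42 against 9.54, 10.00 and 10.51 in TrkC- cells (-1.83, SE 0.37, adjusted p = 0.0044), and 4 other Gja1 probe sets were called lower there by -1.09 to -1.99. At L1 it was 9.94 and 9.20, against 9.97, 10.26 and 10.63 (-0.72, SE 0.41, adjusted p = 0.29), with no Gja1 probe set called. The L5 and L1 differences were not shown to differ (interaction -1.11, SE 0.55, adjusted p = 0.781). At L5, 8 of 8 endothelial, 5 of 8 fibroblast and meningeal and 4 of 11 satellite and immature glia markers were lower in TrkC+ cells too. Of the satellite and immature glia markers 1 was higher, and 19.9% of all probe sets were called. The part of these markers in the Gja1 difference was not tested.

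In NT3Bax mutants Gja1 differed widely between the populations. It stood at 9.13 and 7.90 in TrkC+ cells, against 12.28 and 12.41 in TrkC- cells, a difference of -3.83 (SE 0.42, adjusted p = 5.03e-05), so that TrkC- cells were 14.3-fold higher. Compared with Bax, NT3Bax TrkC- cells were higher by 2.53 (SE 0.42, adjusted p = 0.00121), and NT3Bax TrkC+ cells were lower by -1.39 (SE 0.42, adjusted p = 0.0356). The second of these calls was lost without any 1 of NT3Bax TrkC+ replicate 2, Bax TrkC+ replicate 1 or Bax TrkC+ replicate 2, with differences of -0.78, -1.51 and -1.28. Against WT, NT3Bax TrkC+ cells differed by -1.10 (SE 0.42, adjusted p = 0.0729), called only without NT3Bax TrkC+ replicate 1 (-1.71) among the arrays left out, while 2 other probe sets were called lower, 1438945_x_at (-1.26, adjusted p = 0.0166) and 1415800_at (-1.07, adjusted p = 0.0453). Both were also called lower against Bax (-1.48 and -1.39). The satellite and Schwann cell marker sums of the NT3Bax TrkC+ arrays were below those of Bax, as given with Gjd2, and their part in the Gja1 difference was not tested. The interaction was -3.93 (SE 0.59, adjusted p = 0.00144). On the same NT3Bax TrkC- arrays Col1a1, a collagen of fibroblasts, was 11.80 and 12.41, against 5.61 and 6.69 in Bax, and Cldn5, a tight junction protein of endothelium, 8.75 and 8.43, against 5.58 and 5.91. Fabp7, of satellite and immature glia, was 13.39 and 13.05, against 11.84 and 12.14. Of the other 5 Gja1 probe sets, 4 gave the same calls in TrkC- cells against Bax, with differences of 2.21 to 3.09, and 1415801_at, which had the lowest mean, was not called.

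Gjb1 and Gjc3 were dim at birth, with no detection call used here. Lower quartiles of the arrays lay between 4.51 and 4.68, and the newborn values of Gjb1 ranged over 4.53 to 5.37 and those of Gjc3 over 3.97 to 5.13. Gjb1 did not pass the test in any newborn comparison. In pooled WT ganglia it was 5.04 and 5.05 in TrkC+ cells, against 4.89 and 5.25 in TrkC- cells, and at L5 it was 5.18, 5.21 and 5.37, against 5.23, 4.87 and 4.75. Gjc3 was called only where NT3Bax TrkC- cells entered. It was 4.36 and 4.33 in NT3Bax TrkC+ cells, against 4.82 and 5.13 in NT3Bax TrkC- cells (-0.63, SE 0.18, adjusted p = 0.0264). Against the 4.18 and 4.45 of Bax TrkC- cells, NT3Bax TrkC- cells were higher by 0.65 (SE 0.18, adjusted p = 0.0201). These are the arrays with the raised sums of glial markers. The first difference was lost without either NT3Bax TrkC+ array (-0.65 and -0.61) or NT3Bax TrkC- replicate 2 (-0.47), and the other without NT3Bax TrkC- replicate 2 (0.50) or Bax TrkC- replicate 1 (0.52). Against WT, NT3Bax TrkC- cells were higher by 0.68 (SE 0.18, adjusted p = 0.014), lost without NT3Bax TrkC- replicate 2 (0.53) or either WT TrkC- array (0.63 and 0.73). The other Gjc3 probe set, 1445523_at, was not called in any comparison and had the opposite sign in these 3, with 0.08 between the NT3Bax populations and, in TrkC- cells, -0.24 against Bax and -0.26 against WT. Taken as the mean of both probe sets, the 3 differences were -0.28, 0.21 and 0.21 (adjusted p = 0.223, 0.354 and 0.311), and none was called.

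**Figure D2:**
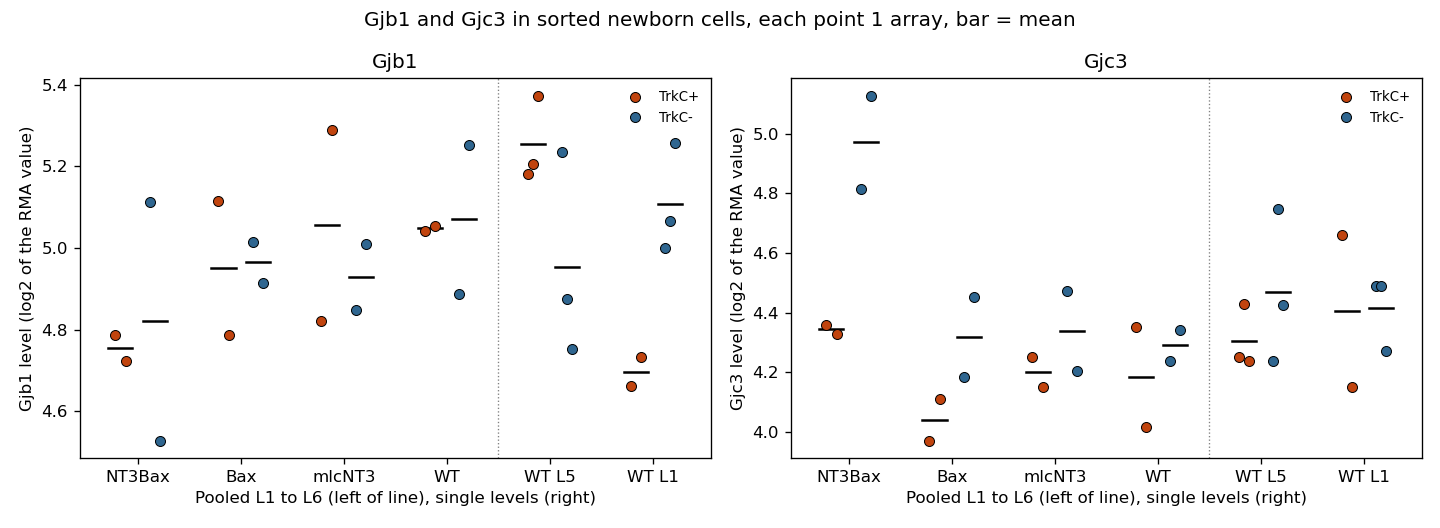
Log2 level of Gjb1 (left) and Gjc3 (right) on each newborn array, by genotype or level, TrkC+ in orange and TrkC- in blue, with a bar at the group mean. Gjb1 ranges over 4.53 to 5.37 with mixed order of the populations, and Gjc3 reaches its highest values, 4.82 and 5.13, in NT3Bax TrkC- cells.

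Counted over the 4 genes, Gjd2 alone was called in pooled WT ganglia, where 8.95% of all probe sets were called, in Bax (7.82%), in mlcNT3 (10.0%) and at L1 (17.9%). Gjd2 and Gja1 were called at L5 (19.9%), and Gjd2, Gja1 and Gjc3 in NT3Bax (19.3%). Between genotypes, 1 gene was called for NT3Bax against WT in TrkC+ cells (26.0%) and 2 for NT3Bax against Bax (18.2%). In TrkC- cells 3 were called against WT (26.5%) and 3 against Bax (21.7%). None was called for Bax against WT (0.500% in TrkC+ and 0.178% in TrkC-) or for mlcNT3 against WT (0.209% and 0.00444%), or between L5 and L1 (0.397% and 0.160%). The interaction of NT3Bax against Bax held 1 called gene, Gja1 (9.65%), and those of mlcNT3 against WT (0.0422%) and of level (0.0666%) held none. The median difference of the 4 genes in pooled WT ganglia, -0.06, was close to that of all probe sets, -0.08, with Gjd2 far above it and the 3 glial genes near 0. The comparisons of NT3Bax with Bax and with WT share the NT3Bax arrays.

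**Figure D3:**
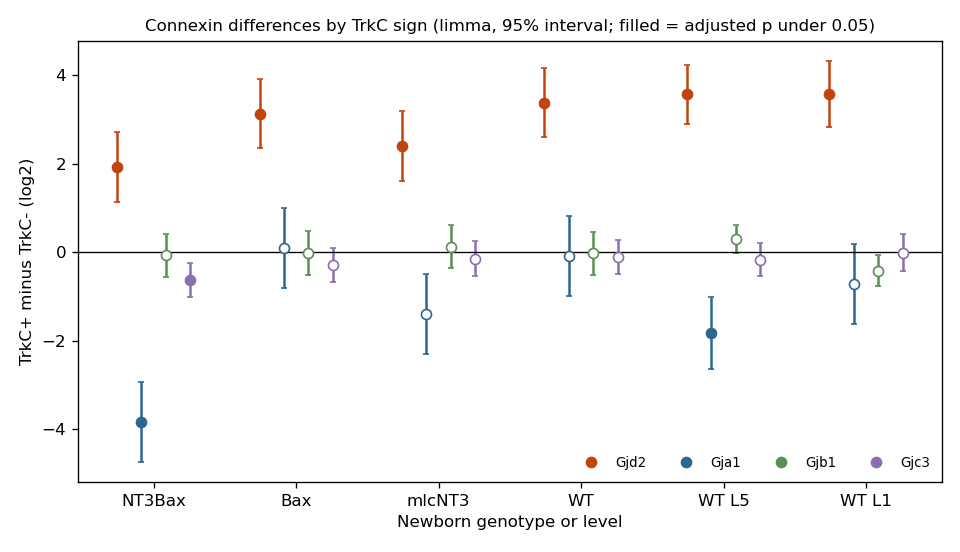
Difference between TrkC+ and TrkC- cells (log2) for the 4 connexins in 4 genotypes and at L5 and L1, with 95% intervals from limma and filled points where the adjusted p is under 0.05. Gjd2 is above 0 in all 6 comparisons, between 1.93 and 3.58, while Gja1 lies between -3.83 and 0.10 and Gjb1 and Gjc3 stay near 0, with Gjc3 called only in NT3Bax at -0.63.

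Set against the glial connexins of the same array, Gjd2 was shifted towards TrkC+ cells in each of the 6 comparisons. The difference between populations of Gjd2 minus the mean of Gja1, Gjb1 and Gjc3 was 3.44 in NT3Bax, 3.20 in Bax, 2.88 in mlcNT3, 3.46 in WT, 4.14 at L5 and 3.96 at L1, with a mean of 3.51 over the 6 comparisons. In NT3Bax the value included the high Gja1 of the TrkC- arrays with raised sums of glial and fibroblast markers. Whether the 6 values differ was not tested. The values are a description of genes chosen with results known. A permutation of the TrkC sign was run on their mean, and its p is not given, since Gjd2 was singled out from these arrays. Gjb1 and Gjc3, which enter the glial mean, were dim at birth.

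Of 16 other connexins, 10 were measured. By TrkC sign, 1 was called in pooled WT ganglia (8.95% of all probe sets called), 0 in Bax (7.82%) and 3 in NT3Bax (19.3%). In mlcNT3 (10.0%), at L5 (19.9%) and at L1 (17.9%) 1 was called each. Against WT, 1 was lower in NT3Bax TrkC+ cells (26.0%) and 3 were higher in NT3Bax TrkC- cells (26.5%). Against Bax these counts were 0 (18.2%) and 2 (21.7%). Gja4, best known from endothelium, was higher in TrkC+ cells in pooled WT ganglia (1.10, SE 0.24, adjusted p = 0.0123), in mlcNT3 (0.90) and at L5 (0.88), and lower in NT3Bax (-1.07, SE 0.24, adjusted p = 0.00768). In NT3Bax, Gjb2, a connexin of epithelia and meninges, and Gjc1, a connexin of mural and smooth muscle cells, were also lower in TrkC+ cells, by -1.78 and -1.31. These 3 differences used the NT3Bax TrkC- arrays, on which 8 of 8 fibroblast and meningeal, 8 of 8 endothelial and 4 of 6 mural cell markers were higher than in Bax, and the part of these markers was not tested. By TrkC sign, Gjd4 was called only at L1, at -0.78. The median difference of the 10 genes was 0.06 in pooled WT ganglia and -0.05 in NT3Bax, against -0.08 and 0.03 for all probe sets.

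The pannexins, related channel proteins that act mostly as single-membrane channels, were 3 genes. Panx1 was lower in TrkC+ cells in pooled WT ganglia (-1.02, SE 0.20, adjusted p = 0.006), in Bax, in mlcNT3 and at both levels. Panx2 was higher in TrkC+ cells in WT (0.77, SE 0.22, adjusted p = 0.0429) and in mlcNT3 (0.78), and NT3Bax TrkC+ cells were below Bax by -1.87 (SE 0.22, adjusted p = 1.24e-04), where 18.2% of all probe sets were called. A fall was not limited to TrkC+ cells. In NT3Bax TrkC- cells 2 of the 3 pannexins were called lower against Bax (21.7%) and 2 against WT (26.5%).

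Of 9 measured partners of gap junctions, 4 passed the test in pooled WT ganglia, where 8.95% of all probe sets did. Cav1, the caveolin that has been found with connexins in membrane rafts, was lower in TrkC+ cells by -6.88 (SE 0.56, adjusted p = 1.23e-05), the largest difference of the list there. Camk2a, a kinase that binds Cx36, was lower by -2.26 (SE 0.26, adjusted p = 1.67e-04), and 1 further partner was lower. Cgn, a tight junction protein, was higher by 1.17 (SE 0.24, adjusted p = 0.00784). Between NT3Bax and Bax TrkC+ cells, Nbea, needed for electrical synapses in zebrafish, was higher by 2.09 (SE 0.24, adjusted p = 1.13e-04), and Tjp1, the scaffold ZO-1 that binds connexins directly, by 1.65 (SE 0.24, adjusted p = 6.79e-04). Cav1 was lower by -2.16, and in all 3 partners rose and 2 fell, where 18.2% of all probe sets were called.

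In adult whole ganglia 2 of the 4 connexins, Gjd2 and Gjb1, were called higher at L5 than at L1 on their main probe sets. This held with wheels (5.43% of probe sets called) and without (4.68%). With a wheel Gjd2 was 6.48, 6.58 and 6.72 at L5, against 5.75, 5.73 and 5.78 at L1, a difference of 0.84 (SE 0.18, adjusted p = 0.0119), and the groups did not overlap. Without a wheel it was 6.33, 5.84 and 6.74 at L5, against 5.27, 5.87 and 5.60 at L1, with an overlap of 1 pair of arrays (0.72, SE 0.18, adjusted p = 0.0333). Gjb1 was 6.53, 6.57 and 6.53 at L5 with a wheel, against 5.84, 6.03 and 6.14 at L1 (0.54, SE 0.12, adjusted p = 0.0128). Without a wheel it was 6.46, 6.30 and 6.30 at L5, against 5.61, 6.12 and 5.79 at L1 (0.52, SE 0.12, adjusted p = 0.0206). The other Gjb1 probe set gave 0.47 and 0.36, both past the threshold. The other Gjd2 probe set, 1423019_at, was not called. Its means were 5.602 at L5 and 5.695 at L1 with a wheel, opposite in direction, and 5.702 and 5.396 without.

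The adult calls of Gjd2 and Gjb1 were near the threshold and depended on single arrays. Without a wheel, the Gjd2 call was lost without L5 replicate 1 (0.71), L5 replicate 3 (0.50), L1 replicate 1 (0.56) or L1 replicate 3 (0.73), and the Gjb1 call without L5 replicate 3 (0.54), L1 replicate 1 (0.40) or L1 replicate 3 (0.49). With a wheel, Gjd2 lost it without L5 replicate 3 (0.78) and Gjb1 without L5 replicate 2 (0.53).

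Gja1 was bright in adult ganglia, and its main probe set missed the threshold between levels. It was 10.95, 11.11 and 10.94 at L5 with a wheel, against 10.58, 10.85 and 10.71 at L1 (0.29, SE 0.09, adjusted p = 0.0746), and 10.91, 11.03 and 10.97 at L5 without a wheel, against 10.63, 10.73 and 10.70 at L1 (0.28, SE 0.09, adjusted p = 0.0878). In neither case did L5 and L1 overlap, though groups of 3 arrays can separate without a difference. Of its 6 probe sets, 3 were called higher at L5 with a wheel, with differences of 0.44 to 0.59, and 3 without, with 0.41 to 0.44. Gjc3 was 4.62, 4.83 and 4.95 at L5 with a wheel, against 4.55, 4.52 and 4.54 at L1 (0.26, SE 0.10, adjusted p = 0.172), and it differed by 0.02 (SE 0.10, adjusted p = 0.944) without one.

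**Figure D4:**
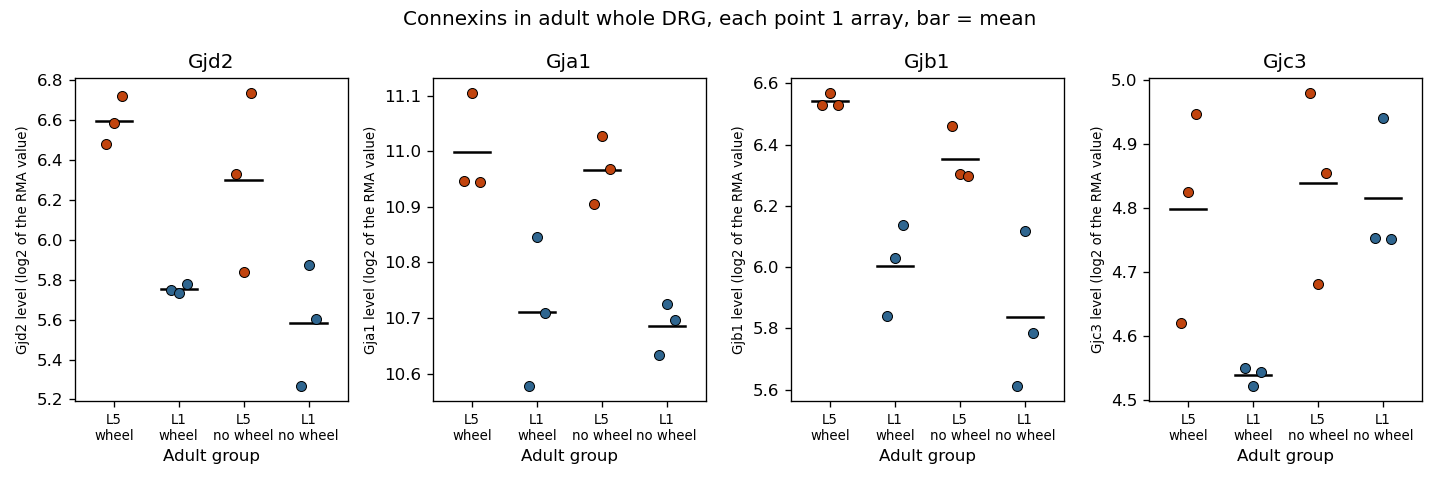
Log2 level of the 4 connexins on each adult array of whole DRG, L5 in orange and L1 in blue, with and without a running wheel, with a bar at the group mean and a separate axis for each gene. Gjd2 and Gjb1 are higher at L5 than at L1 with a wheel without overlap, and the 3 Gja1 values at L5 lie above those at L1 in both conditions.

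Other markers differed by level on the same adult arrays. Proprioceptor markers were higher at L5, 5 of 5 with a wheel and 4 of 5 without, with summed linear levels of 2940 to 3290 at L5 against 1690 to 1720 at L1 with a wheel, and 2500 to 3190 against 1510 to 1670 without. Of 10 Schwann cell and myelin markers, 5 were higher at L5 in each condition, with sums of 16900 to 19900 against 13800 to 18900 with a wheel and 17800 to 18600 against 13300 to 15800 without. None of 11 satellite and immature glia markers was called in either condition. The part of these markers in the connexin differences was not tested. Gjb6, a connexin of glia, was the only other connexin called, at L5 with a wheel (1.45, SE 0.38, adjusted p = 0.036).

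Wheel running was not accompanied by a called change of any of the 4 genes on its main probe set at L1 (0.242% of probe sets called) or L5 (0.480%). The differences of Gjd2, with a wheel minus without, were 0.17 at L1 (95% interval -0.21 to 0.56, adjusted p = 0.763) and 0.29 at L5 (95% interval -0.09 to 0.68, adjusted p = 0.457). For Gja1 they were 0.03 at both levels, and for Gjb1 0.16 and 0.19. Gjc3 differed by -0.28 at L1 (95% interval -0.49 to -0.06, adjusted p = 0.319) and -0.04 at L5. The 1 call over the 12 probe sets fell on Gja1 probe set 1415801_at, with 5.53, 5.68 and 5.44 at L5 with a wheel, against 4.92, 4.81 and 4.77 without (0.72, SE 0.12, adjusted p = 0.0286). The other 5 Gja1 probe sets did not pass the test there. The level difference itself was not called different between the wheel conditions for any of the 4 genes (0% of all probe sets called), with 0.12 for Gjd2 (95% interval -0.42 to 0.66).

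The genes whose log2 values ran closest to Gjd2 over the 27 newborn arrays were Tlcd4 (r = 0.969), Syt2, a calcium sensor of fast transmitter release (r = 0.965), Chchd10, a mitochondrial protein (r = 0.958), Arhgap44 (r = 0.957) and Lin7b (r = 0.954). Closest to Gja1 were Arhgap29 (r = 0.947), the integrin gene Itgav (r = 0.941), Niban1 (r = 0.940), Emp2 (r = 0.928) and Kcnj10, the potassium channel of satellite glia (r = 0.926). For Gjc3 the highest was Eif4ebp1 (r = 0.836), and for Gjb1 Chrnd (r = 0.650). Over the 12 adult arrays Gjd2 ran closest to Lgi3 (r = 0.963), Gja1 to Serpinb6b (r = 0.958), Gjb1 to Rhobtb3 (r = 0.973) and Gjc3 to Max (r = 0.883). These were the highest of 18192 genes compared, over arrays that share the sorted populations or the levels.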

How the data were processed

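RNA of sorted newborn cells (about 350 cells per array from pooled ganglia, 100 from single levels) or of adult ganglia was amplified, labelled and hybridised by the authors, who made the values with RMA in affy under R 2.9. The deposited intensity values are linear, 1 per probe set and array, and whether all arrays were normalised together is not given in the sources used here. Log2 was taken without a pseudocount. Array medians lay between 6.02 and 6.18. For arrays, their number limits the precision, and where replicates are not stated to be separate animals, p-values measure only the spread between these samples.

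The table held 45101 probe sets, of which the 64 Affymetrix control sets were dropped before testing. The annotation named 1 gene for 34945 probe sets, several for 932 and none for 9160. Probe sets ending in _x_at can hold probes that match other sequences. Group means were fitted with limma 3.58.1 (lmFit, eBayes) in R 4.3.3, separately for the 16 pooled newborn, 11 single-level newborn and 12 adult arrays, without covariates, with Benjamini-Hochberg adjustment over all probe sets and a call at an adjusted p under 0.05. The fits were tested on simulated data. The limma fits stand in for the t-test and analysis of variance that the methods name.

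The 4 genes and all gene lists were chosen with earlier results of these data known. Named were all probe sets of the 4 genes, the sort markers, and the 5 genes most alike in pattern. Of the other connexins and pannexins, those called by TrkC sign were named. Those called between genotypes or adult levels were named only in part. Up to 3 called partners of largest change were named in some of the comparisons where a connexin was called. The markers Col1a1, Cldn5 and Fabp7 were chosen after their values were seen. The lists of mural cell, macrophage, red blood cell and pan-neuronal markers were counted, with 6, 3, 0 and 0 genes lower in TrkC+ than in TrkC- cells of NT3Bax mutants, and 0, 0, 0 and 3 higher. The label of strain (129/C57Bl6) differs from the methods (C57Bl6) for the adult mice. The TrkC sign in the titles of the adult samples follows the level and was not used as a sort. Alternatives were a quantile normalisation, a filter at a mean log2 of 5, other sets of arrays in the fit, a trended and robust eBayes, the methods' t-test, the mean over all probe sets of a gene, a replicate block and leaving out each array. A fit without the NT3Bax TrkC- arrays was added after the data were seen.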

Additional observations from a re-analysis of the deposited data

Results flagged for a closer look

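The difference of Gja1 between NT3Bax and Bax mutants was not the same in the sorted populations. The test of the difference itself, NT3Bax minus Bax in TrkC+ minus TrkC- cells, gave -3.93 (SE 0.59, limma adjusted p = 0.00144), with Gja1 lower by -1.39 in TrkC+ cells and higher by 2.53 in TrkC- cells. Both NT3Bax TrkC- arrays, at 12.28 and 12.41, lay above every other newborn array. Leaving out each array in turn gave -4.54 to -3.31. The same arrays had 8 of 8 fibroblast and meningeal and 8 of 8 endothelial markers higher than Bax, and their part in the Gja1 difference was not tested.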

How the results depend on the processing

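No called connexin difference changed sign under any alternative, and 1978 of 2139 values of the 4 genes and of the within-array difference of Gjd2 from the glial genes kept direction and side of the threshold. Groups of 2 or 3 arrays limit what a test without moderation can pass. Under the methods' t-test after Benjamini-Hochberg, with the same differences, no longer past the threshold were Gjd2 by TrkC sign in WT (3.38), Bax (3.14), NT3Bax (1.93) and mlcNT3 (2.41), Gjd2 in NT3Bax TrkC+ cells against WT (-2.84) and Bax (-3.62) and in NT3Bax TrkC- cells against WT (-1.38) and Bax (-2.41), Gja1 by TrkC sign in NT3Bax (-3.83) and at L5 (-1.83), Gja1 in NT3Bax against Bax in TrkC- (2.53) and TrkC+ cells (-1.39) and against WT in TrkC- cells (2.64), the 3 Gjc3 calls (-0.63, 0.65 and 0.68), and L5 minus L1 of Gjd2 (0.84 with and 0.72 without a wheel) and Gjb1 (0.54 and 0.52). With only the groups compared, Gja1 in NT3Bax against Bax TrkC+ cells (-1.39, adjusted p = 0.152) and, without a wheel, Gjd2 (0.72, adjusted p = 0.131) and Gjb1 (0.52, adjusted p = 0.0806) were lost, as were the 3 Gjc3 calls. With all 39 arrays in 1 fit the adult calls were lost for Gjd2 (0.84 and 0.72) and Gjb1 (0.54 and 0.52). The cause was not tested. Quantile normalisation called Gja1 at L5 against L1 with (0.31) and without a wheel (0.32), as did the mean of all its probe sets (0.35 and 0.33), while that mean lost Gjd2 with a wheel (0.38, adjusted p = 0.115). Gjd2 in mlcNT3 against WT TrkC+ cells, not called, was 0.039 after quantile normalisation and 0.11 as the mean of its probe sets. The low filter left Gjc3 out where its mean was under 5.

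Leaving out each array gave -2.01 to -0.78 for Gja1 in NT3Bax against Bax TrkC+ cells, -0.44 to 0.25 for Gja1 by TrkC sign in WT, -0.27 to 0.17 for Gjd2 in mlcNT3 against WT TrkC+ cells, -1.58 to -1.19 for Gjd2 in NT3Bax against WT TrkC- cells, -0.74 to 0.013 for Gjd2 at L5 against L1 in TrkC- cells, and for L5 minus L1 0.78 to 0.90 with and 0.50 to 0.95 without a wheel for Gjd2, and 0.46 to 0.61 and 0.40 to 0.66 for Gjb1. Same-numbered arrays did not pair by a rule for at least 3 pairs all above a correlation of 0.1: values were 0.08 to 0.20 for L5 TrkC+ with TrkC- and -0.24 to -0.05 for adult L5 with L1 without a wheel, and pooled groups have 2 pairs. With the replicate number as a block, all 96 connexin values kept their label (Gjd2 by TrkC sign in WT 3.38), and so did all 16 with a replicate block within genotype. The count of all probe sets called in WT by TrkC sign was 4032 in the fit as reported, 4181 with the block and 4685 without the NT3Bax TrkC- arrays, a setting added after the data were seen. It kept the calls of the 4 genes in the pooled newborn comparisons that do not use those arrays, and gives no value for the others. Under the other alternatives it ran from 1 with the methods' t-test to 8728 with only the groups compared. Over all comparisons, 171 of 537 such counts moved by over 1.5 times.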
